A study of Mus musculus with 30 samples.

Results

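The solute carrier (SLC) gene family was examined in spinal microglia of mice under nerve injury or morphine. The genes were chosen by 2 conditions on the expression table, a symbol that begins with Slc and a number, and a mean of at least 1 FPKM over all 30 libraries. FPKM counts fragments scaled for the length of the transcript and the depth of the library. Of 24888 rows, 373 carried such a symbol, 197 of these had a mean under 1 FPKM, and 176 genes were kept. The last 3 inside the threshold were Slc14a1 at 1.00 FPKM, Slc38a6 at 1.05 FPKM and Slc6a11 at 1.05 FPKM, and the first 3 outside it were Slc35g1 at 0.979 FPKM, Slc5a3 at 0.961 FPKM and Slc4a4 at 0.905 FPKM. The symbol stem covers 5 genes that are not carriers themselves: the scaffold proteins Slc9a3r1 and Slc9a3r2, the adaptor Slc4a1ap, the pseudogene Slc2a4rg-ps, and Slc7a6os, which lies opposite to Slc7a6, so that reads of this pair cannot be told apart without strand. The other members belonged to 44 families. All 176 passed the filter of the tests, at least 1 FPKM in at least 2 libraries, and 119 were above 0 in every library.

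C57BL/6J mice gave the RNA, from cells of the caudal lumbar spinal cord selected for CD11b, a surface integrin of microglia that neutrophils and monocytes also carry. There were 4 libraries of fixed morphine and 3 of escalating morphine, each with saline libraries of its own regimen (4 of fixed saline and 3 of escalating saline). Nerve injury followed 3 models with 2 libraries a day: SNT, in which the sciatic nerve is cut (on days 1, 2, 4 and 7 after injury, dpi), CCI, in which it is loosely constricted (2 and 7 dpi), and SNI, in which 1 of its branches is spared (7 dpi). The controls of the injury groups were the 7 saline libraries and 2 libraries from naive mice, which had neither treatment nor injury. Ages, sexes, doses and the number of animals per library were not given, and p-values therefore rest on a spread among libraries that may be technical.

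Solute carriers are membrane proteins that move small molecules down or against their gradients, often by exchange or by coupling to sodium or protons. They set which sugars, amino acids, metals and ions a cell takes up or releases, and those of the Slc25 family link mitochondria to the cytosol. In microglia and other macrophages, known examples are the fructose carrier Slc2a5, often used as a microglial marker, and the phagosomal metal carrier Slc11a1, which withholds metals from engulfed microbes.

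The promoters of 3 members that changed under fixed morphine are shown, chosen after their values were seen and from the members with a promoter at hand: Slc39a1 (ZIP1), which imports zinc and was lower, Slc30a1 (ZnT1), which exports zinc and was higher, and Slc35e1, an orphan carrier that was higher. Each runs 5′ to 3′ on the gene's own strand from 250 bases before to 50 bases after the RefSeq start (GRCm38.p6), and capitals mark matches to the motifs named after them. They lie at chr3:90247942-90248241 on the plus strand, chr1:191906531-191906830 on the plus strand and chr8:72492565-72492864 on the minus strand.
Slc39a1: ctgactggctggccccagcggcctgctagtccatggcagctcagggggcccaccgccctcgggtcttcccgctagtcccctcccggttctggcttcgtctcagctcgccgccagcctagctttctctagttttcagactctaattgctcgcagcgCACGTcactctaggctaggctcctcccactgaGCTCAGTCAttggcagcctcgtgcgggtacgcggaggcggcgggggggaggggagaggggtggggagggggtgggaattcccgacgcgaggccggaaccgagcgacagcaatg
Slc30a1: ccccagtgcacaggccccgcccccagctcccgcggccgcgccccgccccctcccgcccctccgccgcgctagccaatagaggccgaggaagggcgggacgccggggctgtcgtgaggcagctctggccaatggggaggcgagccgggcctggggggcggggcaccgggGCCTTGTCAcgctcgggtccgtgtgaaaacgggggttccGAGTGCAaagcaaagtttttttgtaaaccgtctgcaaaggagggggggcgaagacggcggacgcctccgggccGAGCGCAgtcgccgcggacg
Slc35e1: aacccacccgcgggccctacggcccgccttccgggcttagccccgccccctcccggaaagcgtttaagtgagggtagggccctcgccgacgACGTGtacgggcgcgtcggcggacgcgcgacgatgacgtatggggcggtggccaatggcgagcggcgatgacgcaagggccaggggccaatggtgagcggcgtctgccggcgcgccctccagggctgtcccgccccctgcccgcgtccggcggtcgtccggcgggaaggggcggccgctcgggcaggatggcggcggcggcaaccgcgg

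Both strands were searched for 6 motifs: the metal response element core as TGCACNC or TGCGCNC, the amino acid response element core TGATGNAA, the antioxidant response element core TGACNNNGC, the lysosomal E-box TCACGTG, and the hypoxia response core ACGTG, which lies inside the E-box. The Slc30a1 promoter held 1 match to each form of the metal response element, which is the binding site of the zinc-sensing factor MTF1, and 1 antioxidant match. The Slc39a1 promoter held 1 antioxidant and 1 hypoxia match, and that of Slc35e1 held 1 hypoxia match. The promoters of 1 chromosome were left out of these counts. For 134 of the 176 members a promoter then remained (179 promoters), and their shares are set against the 32851 promoters searched. TGCACNC was in 16.8% against 12.6%, TGCGCNC in 24.6% against 15.4%, TGACNNNGC in 21.8% against 12.4%, ACGTG in 29.1% against 19.6%, TCACGTG in 9.5% against 3.77% and TGATGNAA in 2.79% against 3.97%. These are matches of letters, not sites shown to be bound, and the promoters of genes that microglia do not express are among the 32851.

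Mitochondrial carriers and a few macrophage carriers made up the top of the family. Slc25a5, which exchanges ADP for ATP across the inner mitochondrial membrane, averaged 313 FPKM over the 30 libraries (range 163 to 521). It was followed by Slc25a3, the mitochondrial phosphate carrier, at 132 FPKM (65.4 to 262), Slc2a5 at 110 FPKM (30.9 to 180) and Slc11a1 at 108 FPKM (20.3 to 154). The ranges of all 4 overlapped. Slc3a2, the heavy chain that carries amino acid exchangers to the cell surface, averaged 97.5 FPKM, and its light chain Slc7a8 87.2 FPKM. The remaining members of the top 10 were Slc25a4 at 77.8 FPKM, a second ADP/ATP exchanger, the lysosomal nucleoside carrier Slc29a3 at 68.0 FPKM, Slc25a39, which brings glutathione into mitochondria, at 67.1 FPKM, and the oxoglutarate carrier Slc25a11 at 63.3 FPKM. These 10 held 36.8% of the family's summed FPKM. The median member averaged 7.46 FPKM, 64 members lay between 10 and 100 FPKM, 108 were under 10 FPKM and 24 were under 2 FPKM. On this scale, which the rule also used, levels are a description without a test.

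By substrate, the 26 metal carriers had a median of 9.30 FPKM, the 36 mitochondrial carriers 6.13 FPKM, the 25 amino acid carriers 5.11 FPKM and the 20 nucleotide sugar carriers 10.8 FPKM. The 18 carriers of ions and pH had a median of 7.18 FPKM and the 11 sugar carriers 12 FPKM. Classes were assigned by family number, so a class can hold orphan carriers such as Slc35e1. Among members with a known role in microglia, the iron exporter Slc40a1 (ferroportin) averaged 48.6 FPKM and the folate carrier Slc46a1 49.1 FPKM. The glucose carriers Slc2a1 and Slc2a3 averaged 13.8 and 10.6 FPKM, and the lactate carriers Slc16a3 and Slc16a1 15.1 and 3.15 FPKM. The glutamate carrier Slc1a3, which astrocytes express strongly, averaged 19.3 FPKM. Other members with such a role were the endosomal proton exchanger Slc9a9 at 30.1 FPKM, the sugar phosphate carrier Slc37a2 at 21.6 FPKM, the lysosomal peptide carrier Slc15a3 at 18.5 FPKM and the calcium exchangers Slc24a3 and Slc8a1 at 4.99 and 2.61 FPKM. The cystine carrier Slc7a11 fell below the threshold, at 0.227 FPKM.

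**Figure D1:**
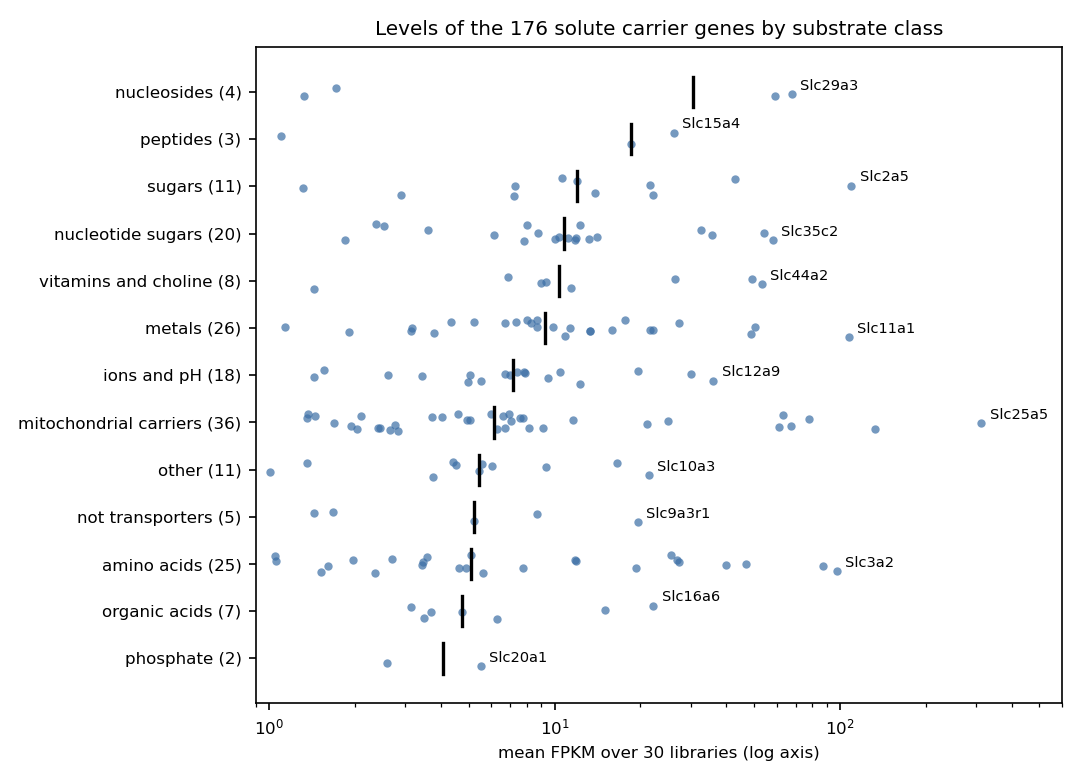
Mean FPKM over 30 libraries (log axis) of the 176 members, one point per gene, by substrate class with the number of genes in parentheses; black bars are class medians and the highest gene of each class is named. Slc25a5 at 313 FPKM stands farthest right, and the metal, amino acid and sugar classes each reach about 100 FPKM through Slc11a1, Slc3a2 and Slc2a5.

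The libraries fell into 2 sets that the labels do not name, by the level of Cst3, which encodes the microglial protease inhibitor cystatin C. Cst3 stood at 10120 to 20827 FPKM in 14 libraries (all 4 of fixed morphine, escalating morphine replicate 1, all 6 of CCI and SNI, SNT_7dpi replicate 2 and both naive libraries) and at 39503 to 95123 FPKM in 16 (all 7 of saline, escalating morphine replicates 2 and 3, and the other 7 of SNT). This split coincides with fixed morphine against fixed saline and with naive against saline. It nearly coincides with SNT against CCI and SNI and, the 2 naive libraries aside, with CCI and SNI against controls. In those comparisons the split and the groups cannot be told apart by design. For genes with a single annotated transcript, the low value at which FPKM times length was densest was assumed to be that of 1 read. This gave relative depths, in megafragments (M), of 10.2 to 16.8 M in fixed morphine and 1.97 to 8.59 M in fixed saline. They were 1.74 to 12 M in SNT and 5.37 to 21.4 M in CCI and SNI, and 1.74 to 21.4 M over all libraries. Between 125 and 174 members reached 1 FPKM in a library. All 12 microglial marker genes listed were measured in every group, with summed levels of 10200 to 15700 FPKM in the libraries below the Cst3 split and 7350 to 17100 FPKM in those above it. Fewer cells of a type and less RNA per cell cannot be told apart in such bulk samples.

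Fixed-regimen morphine was compared with its saline group to ask which carriers differ in microglia of treated mice. Under fixed morphine 25 members were higher and 2 were lower (limma on log2(FPKM + 1), adjusted p under 0.05), 15.3% of the family, where 18.0% of the 11759 genes tested were called. At an unadjusted p under 0.05 there were 64 members, 36.4% beside 34.7% of all genes. The higher calls were 14.2% of members beside 13.6% of all genes, and the lower calls 1.14% beside 4.46%. The calls were spread over carriers of zinc and other metals, amino acids, chloride and potassium, and mitochondria. The median difference was 0.37 (log2) over members and 0.22 over all genes. All libraries of the 2 groups lay apart in 49 members that were higher (27.8%, beside 22.1% of all genes) and 5 that were lower (2.84%, beside 7.49%). Scaling by the median ratio of genes gave 15 members higher and 5 lower, with 1822 of all genes called. The count of 27 members, beside 2119 of all genes, fell to 10 and 12 (757 and 831 genes) without fixed morphine replicates 2 and 3. Without fixed saline replicates 4, 5 and 6 it fell to 17, 13 and 15 (1558, 930 and 969 genes).

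Of the 26 metal carriers, 5 were higher and 1 was lower, where 13.6% of all genes were higher and 4.46% lower. Slc39a14 (ZIP14; chromosome 14, 70303469 to 70351425, mm10), which imports zinc, manganese and iron, had the largest difference. Its level was 6.37, 31.9, 44.9 and 11.96 FPKM in fixed morphine, against 0.617, 0.340, 0.164 and 0.402 FPKM in fixed saline, a difference of 3.83 ± 0.59 (log2, SE; limma adjusted p = 0.00531). The groups did not overlap, and the morphine libraries themselves spread widely. Slc39a1 (chromosome 3, 90248172 to 90253612, mm10) went the other way, at 5.71, 6.41, 8.50 and 4.73 FPKM in fixed morphine, against 30.7, 28.9, 74.7 and 42.7 FPKM in fixed saline, a difference of -2.54 ± 0.52 (limma adjusted p = 0.00875). Every morphine library was below every saline library. The exporter Slc30a1, whose promoter held both metal response matches, was at 1.90 to 2.26 FPKM in fixed morphine and 0.178 to 0.498 FPKM in fixed saline (1.21 ± 0.30). Slc30a4, Slc30a9 and the importer Slc39a8 were the other higher metal carriers, at 1.39, 0.84 and 1.41 (log2). The iron exporter Slc40a1 had 45.7 to 84.8 FPKM in fixed morphine and 26.2 to 46.5 FPKM in fixed saline and did not pass (limma adjusted p = 0.0776).

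Of the 25 amino acid carriers, 5 were higher and 1 was lower, beside the same 13.6% and 4.46% of all genes. Slc7a5 (LAT1; chromosome 8, 121881150 to 121907694, mm10), which exchanges large neutral amino acids, was at 29.8, 86.0, 85.7 and 30.9 FPKM in fixed morphine, against 6.93, 5.09, 7.70 and 10.1 FPKM in fixed saline, a difference of 2.66 ± 0.51 (limma adjusted p = 0.00726). Its partner chain Slc3a2 was instead lower, at 75.6, 94.9, 102 and 62.6 FPKM in fixed morphine, against 138, 112, 112 and 145 FPKM in fixed saline (-0.61 ± 0.19; limma adjusted p = 0.0441). The 2 chains of the same exchanger were thus called in opposite directions against saline, with no overlap between groups for either gene. Slc43a3, which sits in a family of amino acid carriers and is known to carry purine bases, was at 2.04, 20.5, 24.7 and 4.23 FPKM in fixed morphine, against 1.36, 1.92, 0.308 and 3.45 FPKM in fixed saline (1.94 ± 0.60), so that the lowest morphine library lay inside the saline range. Slc38a10 (1.497), the glutamine carrier Slc38a2 (1.30) and the taurine carrier Slc6a6 (0.69) were also higher on the log2 scale.

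Of the 18 carriers of ions and pH, 6 were higher and none was lower, beside 13.6% and 4.46% of all genes. Slc12a2 (NKCC1), which brings sodium, potassium and chloride into the cell, was at 25.3, 19.0, 13.8 and 17.3 FPKM in fixed morphine, against 4.04, 5.23, 2.92 and 2.25 FPKM in fixed saline (2.12 ± 0.41; limma adjusted p = 0.00726). Slc12a7 (KCC4), which carries potassium and chloride outward, differed by 1.51 ± 0.47, and the groups again did not overlap (6.05 to 13.9 FPKM in fixed morphine and 0.742 to 5.04 FPKM in fixed saline). The sodium-calcium exchanger Slc8a1, the bicarbonate exchanger Slc4a2 and Slc12a9 were higher by 1.02, 1.06 and 0.81 (log2). Among the 36 mitochondrial carriers 4 were higher: the iron carrier Slc25a28 (mitoferrin 2; 1.496), the ornithine carrier Slc25a15 (1.28), the ATP-magnesium carrier Slc25a25 (1.13) and Slc25a44 (0.91). The sugar class gave Slc2a6, a lysosomal carrier of macrophages (1.49), and Slc45a4 (1.77), the nucleotide sugar class gave Slc35e1 (1.89) and Slc35d1 (1.32), and the phosphate carrier Slc20a2 was higher by 1.09. Slc2a5, Slc11a1 and Slc25a5, the leading carriers by level, did not pass (limma adjusted p = 0.253, 0.463 and 0.0737).

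**Figure D2:**
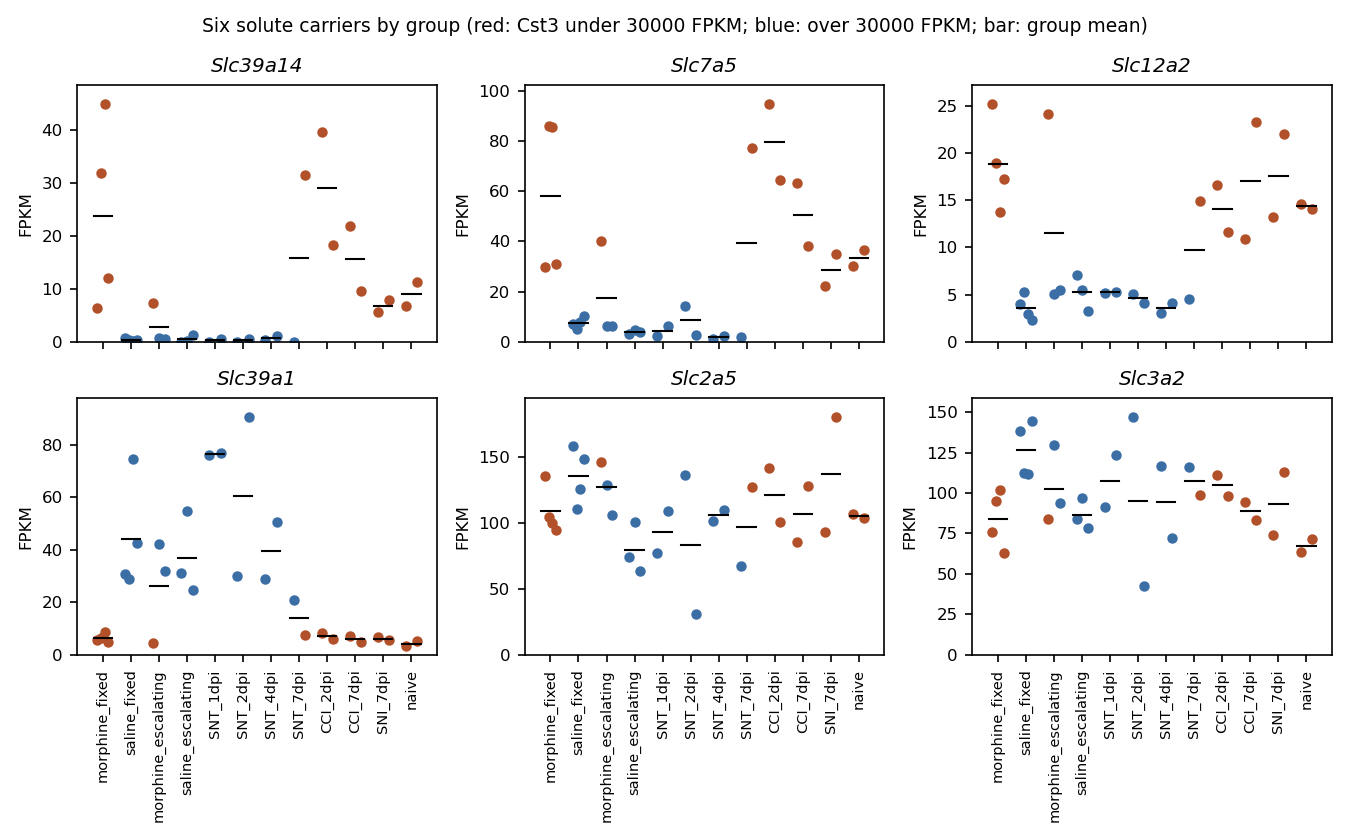
FPKM of 6 members in each library by group (linear axes from 0); points are libraries, black bars are group means, red and blue points lie below and above 30000 FPKM of Cst3. Slc39a14, Slc7a5 and Slc12a2 are high and Slc39a1 is low in every red library, including both naive libraries, while Slc2a5 and Slc3a2 do not part by colour.

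The calls were made against saline, and naive libraries gave another comparator. Against the 2 naive libraries, which lie on the same side of the Cst3 split, fixed morphine gave 0 called members and 0 called genes of 11759 (limma; 4 members, and 5.23% of all genes, at an unadjusted p under 0.05). This fit held naive and both morphine regimens, so its spread came in part from escalating morphine, whose libraries lie on both sides of the split. The 0 calls therefore do not show that fixed morphine equals naive. The fixed morphine and naive libraries lay apart in 38 members that were higher (21.6%, beside 18.9% of all genes) and 2 that were lower (1.14%, beside 3.24%). With only 2 naive libraries, separation of this kind arises easily without any difference, and no conclusion is drawn from it. Over the 27 members the median size of the difference was 0.433 against naive and 1.32 against saline, and 25 of 27 kept their sign. Slc39a14 was at 6.73 and 11.2 FPKM in the naive libraries (difference 1.004 ± 0.88 on the log2 scale, adjusted p = 0.681), Slc7a5 at 30.4 and 36.7 FPKM (0.60 ± 0.76), and Slc39a1 at 3.22 and 5.16 FPKM (0.50 ± 0.72, the opposite sign). Slc3a2 also changed sign (0.28 ± 0.24), with 63.7 and 71.3 FPKM in naive.

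**Figure D3:**
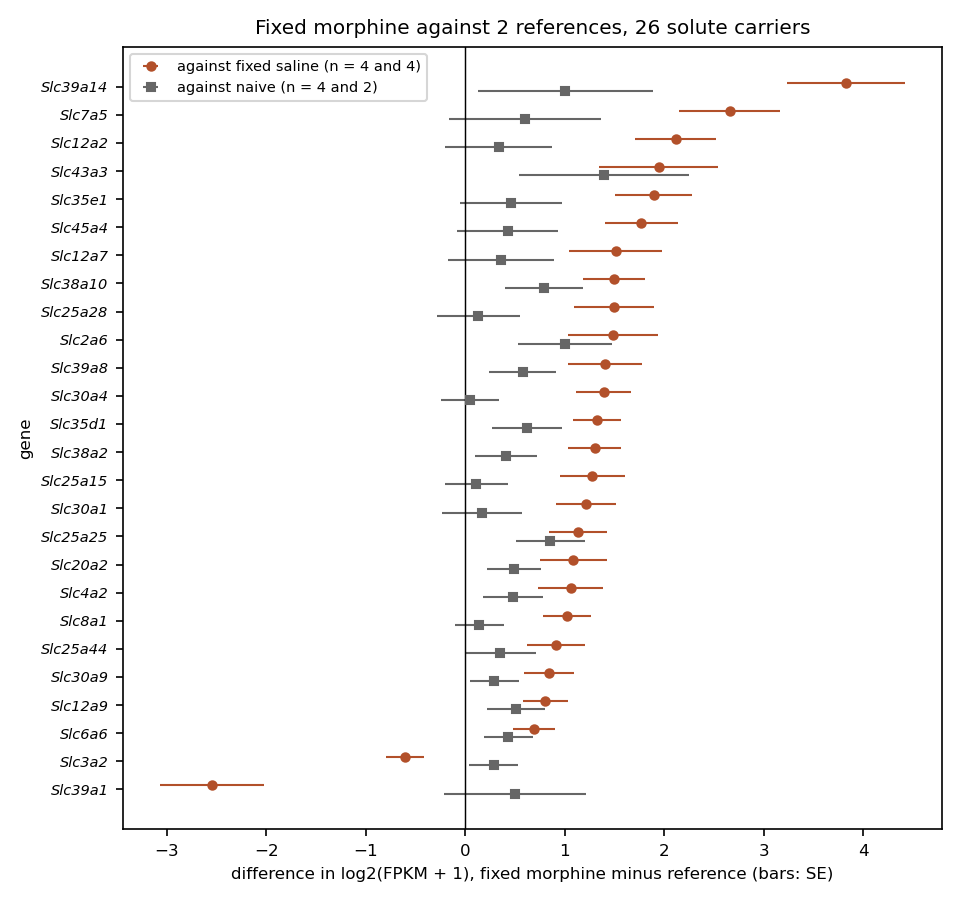
Difference in log2(FPKM + 1) of fixed morphine from fixed saline (circles, n = 4 and 4) and from naive (squares, n = 4 and 2) for 26 of the 27 called members, with bars for the standard error. Over all 27 the median size is 1.32 against saline and 0.433 against naive, and Slc39a1 and Slc3a2 change sign between the 2.

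The other libraries were placed by nearness to the mean of fixed morphine or of fixed saline in each of the 27 called members. These members were chosen by the difference between those groups, which lie on either side of the Cst3 split. The placement is therefore a description and cannot tell the split from treatment. Escalating morphine replicate 1 was nearer to fixed morphine in 26 of the 27 members, and escalating morphine replicates 2 and 3 in 4 and 2. The 6 libraries of CCI and SNI were nearer to it in 17 to 27 members, SNT_7dpi replicate 2 in 26 and the other 7 of SNT in 0 to 8. The naive libraries were nearer to it in 17 and 25, and those of escalating saline in 2 to 3. Over all 30 libraries, 11 members were higher in each of the 14 libraries below the split than in any of the 16 above it, which are 6.25% of members beside 3.49% of all genes. Among them were Slc12a2, Slc24a3, Slc30a1, Slc35e1, Slc35e3, Slc39a14, Slc43a2, Slc45a4, Slc7a5 and Slc8a1. Slc39a1 alone was lower in all 14 (0.568% of members beside 0.952% of all genes), at 3.22 to 8.50 FPKM in those 14 and 20.8 to 90.7 FPKM in the others. Of the 27 members called under fixed morphine 9 are among these 12, which is 33.3% of the calls and 75.0% of the 12. Every fixed morphine library lies below the split and every fixed saline library above it. Genes parted by the split therefore also part these groups, so the overlap follows in part from the design and no conclusion is drawn from it.

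**Figure D4:**
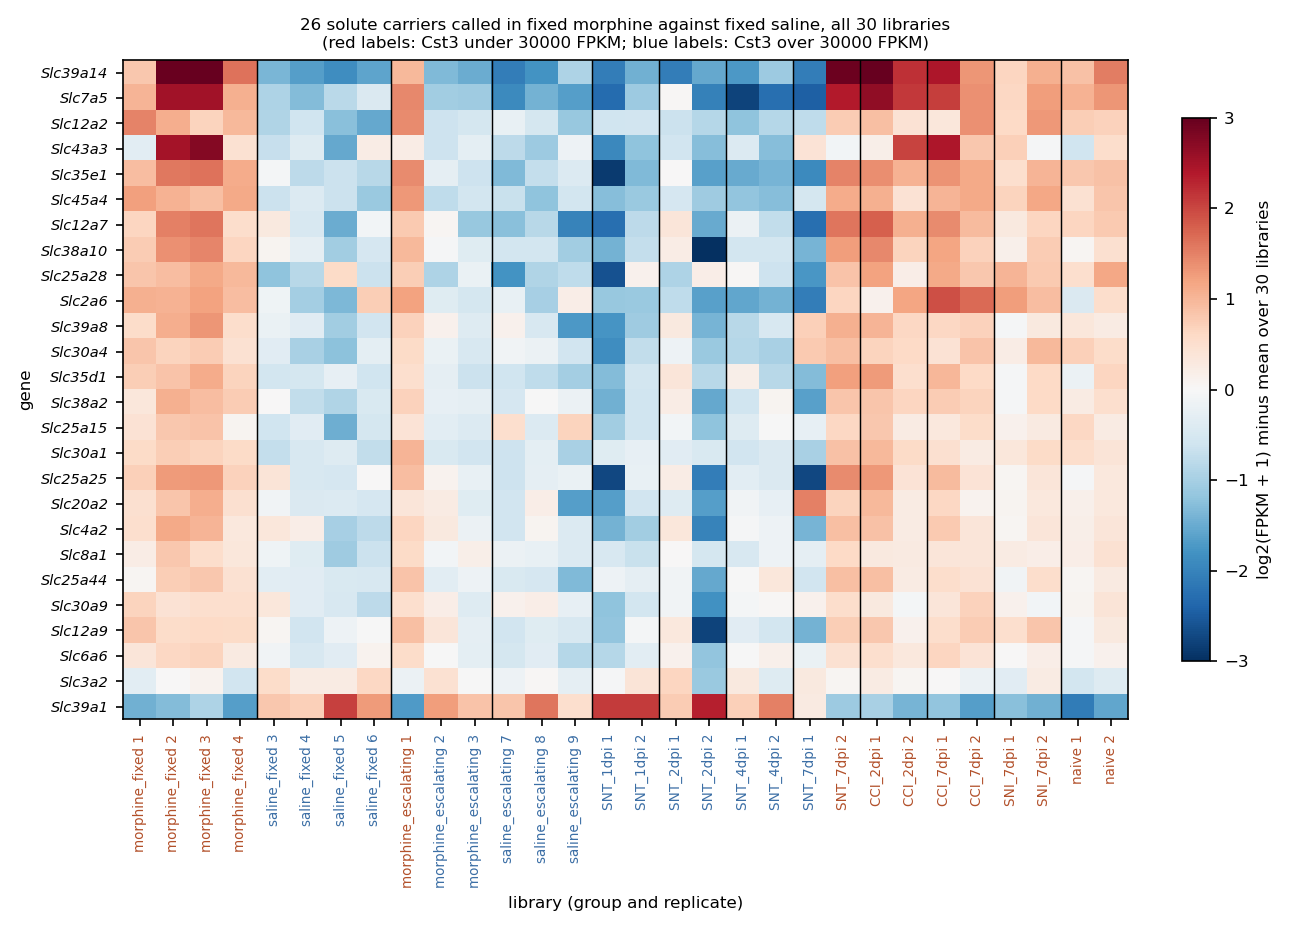
Log2(FPKM + 1) minus the gene's mean over 30 libraries for 26 of the 27 called members (rows, ordered by their difference) in each library (columns, by group); red and blue library names lie below and above 30000 FPKM of Cst3. Warm colours run through the columns with red names, naive included, and cool colours through those with blue names, with Slc39a1 in the reverse pattern.

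Markers of other cells also moved with fixed morphine. All 12 neutrophil genes tested had negative differences (median -1.84, log2), 2 of them called (Camp and S100a8), with summed levels of 1870 to 19200 FPKM in fixed morphine and 7420 to 29000 FPKM in fixed saline. All 10 astrocyte genes had positive differences with none called, at 40.0 to 151 FPKM in fixed morphine and 5.80 to 183 FPKM in fixed saline, and all 8 neuronal genes tested likewise, at 12.6 to 42.8 FPKM in fixed morphine and 2.41 to 24.1 FPKM in fixed saline. Of the microglial genes Itgam and Sall1 were higher and Siglech lower, with a summed level of 10500 to 13500 FPKM in fixed morphine and 13100 to 15800 FPKM in fixed saline. Monocyte genes summed to 120 to 1660 FPKM in fixed morphine and 303 to 1480 FPKM in fixed saline, and oligodendrocyte genes to 136 to 229 FPKM in fixed morphine and 69.8 to 152 FPKM in fixed saline. Border macrophage, endothelial and mural, and lymphocyte genes stayed under 60 FPKM in sum in both groups, with Cldn5, Tek and Slco1a4 of blood vessels listed at 0 in every library of either group. In each of these lists 1 gene was called lower: Pf4, Pecam1 and Cd79a. The fixed morphine libraries were also deeper than those of fixed saline, with no overlap. The part of these cells and of depth in the result was not tested.

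Among genes that work with the carriers, Atf4, the transcription factor of the amino acid response that is known to drive carriers such as Slc7a5, was at 27.8 to 29.9 FPKM in fixed morphine and 62.8 to 77.2 FPKM in fixed saline (-1.21 ± 0.23; limma adjusted p = 0.00728), and Ddit3, a gene it activates, was also lower (0 to 10.9 FPKM in fixed morphine and 19.2 to 44.6 FPKM in fixed saline). In the naive libraries Atf4 was at 18.0 and 32.1 FPKM. That list of 9 had 7 genes tested, with 2 lower and none higher. Gclc, which makes the glutathione precursor, was higher by 2.63 ± 0.37, the only call among 7 tested genes of cystine and glutathione. Of 8 tested iron genes Ireb2 was higher (0.93) and the ferritin chain Ftl1 lower (-0.63), of 13 genes of the proton pump and mTORC1 Rragc was higher (1.51) and Atp6v0d1 lower (-0.64), and of 11 related carriers without the Slc stem Mfsd1, Mfsd12 and Slco4a1 were higher (0.69, 1.64 and 0.93). Of 17 tested lysosomal and endosomal carriers 2 were higher, Slc2a6 among them. None of the 4 zinc-binding and zinc-sensing genes, 7 genes of glucose entry or 4 genes of monocarboxylate handling was called.

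Escalating morphine was compared with escalating saline in the same model. No member was called there (0.034% of all genes were), 38 members had an unadjusted p under 0.05 (21.6%, beside 19.2% of all genes), and 143 of 176 differences were positive, with a median of 0.35 beside 0.16 over all genes. The lowest p among members was that of Slc9a7, a proton exchanger of the Golgi, at 7.93, 7.49 and 4.04 FPKM in escalating morphine, against 1.19, 2.57 and 0 FPKM in escalating saline (1.87 ± 0.41; limma adjusted p = 0.0903). Slc43a2, a carrier of large neutral amino acids, had 13.3, 7.76 and 5.58 FPKM in escalating morphine, against 3.52, 3.84 and 2.40 FPKM in escalating saline (1.16 ± 0.29; limma adjusted p = 0.095). Slc29a3 had 96.9, 87.9 and 71.7 FPKM in escalating morphine, against 53.2, 57.7 and 47.9 FPKM in escalating saline (0.67 ± 0.18; limma adjusted p = 0.1). The groups did not overlap in any of the 3 genes. These genes were picked by their low p in this same comparison, so the separation adds no support. Leaving out escalating morphine replicate 1, which stood with the libraries below the Cst3 split, also gave 0 calls. Leaving out escalating saline replicate 8 gave 9 members, beside 465 of all genes.

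The difference between the responses to the 2 regimens was tested directly, and 0 members passed (0.0085% of all genes were called; 18 members, 10.2%, had an unadjusted p under 0.05, beside 11.7% of all genes). The lowest p-values belonged to the scaffold gene Slc9a3r2 (-1.40 ± 0.37; limma adjusted p = 0.221), to Slc2a5 (-1.004 ± 0.29; adjusted p = 0.244) and to Slc25a15 (1.63 ± 0.50; adjusted p = 0.264). For Slc2a5 the level was 94.7 to 135 FPKM in fixed morphine and 111 to 158 FPKM in fixed saline. In the escalating regimen it was 106 to 146 FPKM with morphine and 63.2 to 101 FPKM with saline.

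Nerve injury was compared with the 9 controls day by day. No member was called in any of the 7 injury groups (limma), while 0.017%, 0.0%, 0.0% and 0.204% of all genes were called after SNT at 1, 2, 4 and 7 dpi, 0.0085% and 0.0% after CCI at 2 and 7 dpi and 0.0% after SNI. At an unadjusted p under 0.05 there were 35, 14, 4 and 19 members after SNT at those days (19.9%, 7.95%, 2.27% and 10.8%, beside 16.1%, 7.33%, 2.34% and 8.88% of all genes). After CCI there were 25 and 17 (14.2% and 9.66%, beside 10.7% and 9.75%), and after SNI 4 (2.27% beside 4.06%). After SNT the median difference over members was -0.40 at 1 dpi, -0.36 at 2 dpi, 0.02 at 4 dpi and 0.04 at 7 dpi, beside -0.25, -0.23, 0.03 and 0.03 over all genes. After CCI it was 0.39 at 2 dpi and 0.29 at 7 dpi, and after SNI 0.24 at 7 dpi, beside 0.17, 0.17 and 0.01. The lowest adjusted p after SNT was 0.129, for the nucleotide sugar carrier Slc35a1 at 1 dpi (-1.86 ± 0.47). At 7 dpi the mitochondrial aspartate-glutamate carrier Slc25a13 came closest (1.68 ± 0.44; adjusted p = 0.221), at 2 dpi Slc2a3 (-1.81 ± 0.56; adjusted p = 0.67) and at 4 dpi Slc15a3 (-0.84 ± 0.34; adjusted p = 1.0). After CCI, Slc39a14 came closest at 2 dpi (3.72 ± 0.91; adjusted p = 0.385) and Slc43a3 at 7 dpi (2.11 ± 0.53; adjusted p = 0.269), and after SNI Slc12a2 (1.48 ± 0.52; adjusted p = 0.999). The 2 SNT_7dpi libraries lay far apart, with Slc39a14 listed at 0 in replicate 1 and at 31.4 FPKM in replicate 2, and Slc7a5 at 1.79 and 77.1 FPKM. Leaving out 1 SNT library raised the calls at 1 dpi (without replicate 2), 2 dpi (without replicate 1) and 7 dpi (without replicate 2). The library left in each time was among the 3 with the fewest genes at 1 FPKM or more.

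Over all days, the 8 libraries of SNT gave 0 called members against controls (limma; 0.0% of all genes called; 11 members at an unadjusted p under 0.05, 6.25% beside 7.13%). The glucose carrier Slc2a3 had the lowest p, with 1.21, 4.15 and 12.6 FPKM as lowest, median and highest in SNT, against 5.78, 9.70 and 20.0 FPKM in controls (-1.34 ± 0.35; adjusted p = 0.47). With the 7 SNT libraries above the Cst3 split set against saline alone, the difference was -1.68 ± 0.35 (adjusted p = 0.105) and still 0 members passed. Slc28a2, which brings nucleosides in with sodium, differed by -0.93 ± 0.27 and the mitochondrial ATP-magnesium carrier Slc25a24 by -1.29 ± 0.39, and neither passed.

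The 6 libraries of CCI and SNI had 6 members higher than controls and none lower (limma; 3.41% of members beside 1.83% of all genes). Slc39a14 was at 5.54, 13.9 and 39.6 FPKM as lowest, median and highest in CCI and SNI, against 0, 0.402 and 11.2 FPKM in controls (2.81 ± 0.62; adjusted p = 0.0429). Slc7a5 was at 22.1, 50.7 and 95.1 FPKM in CCI and SNI, against 3.05, 6.93 and 36.7 FPKM in controls (2.36 ± 0.59; adjusted p = 0.0452). The highest controls of both genes were the naive libraries, and for both the 2 groups overlapped through them. Slc43a3, Slc2a6, Slc12a2 and Slc45a4 were higher by 1.52, 1.48, 1.35 and 1.34 (log2), with adjusted p from 0.0434 to 0.0477. Fixed morphine against fixed saline, which shares saline libraries with this comparison, gave 3.83, 2.66, 1.94, 1.49, 2.12 and 1.77 for Slc39a14, Slc7a5, Slc43a3, Slc2a6, Slc12a2 and Slc45a4. Of the list of microglial roles 2 of 23 were higher, and of the partner genes Gclc was higher (1.64) and Ddit3 lower, listed at 0 in all 6 libraries. All 7 saline libraries lie above the Cst3 split, and the naive, CCI and SNI libraries below it. Against saline alone 22 members were called beside 1296 of all genes, where all controls gave 6 members beside 215 of all genes. The rise was thus not particular to the family. Against the naive libraries alone 0 members and 0 of all genes were called (no member at an unadjusted p under 0.05). The median size over the 6 genes was then 0.557 in place of 1.5, and all 6 kept their sign. The count also fell to 0 to 2 without any 1 of the 7 saline libraries, the 6 libraries of CCI and SNI, or the libraries of SNT_1dpi and SNT_4dpi, and was 12 to 14 without a library of naive or SNT_7dpi. No member was called with median-ratio scaling, a pseudocount of 0.1 or no filter, and quantile scaling gave 5 higher and 1 lower (304 of all genes called). Of the markers, 11 of 12 neutrophil genes, 7 of 9 monocyte genes, 7 of 8 border macrophage genes and 9 of 10 oligodendrocyte genes had negative differences, none of them called. Neutrophil genes summed to 3110 to 9550 FPKM in CCI and SNI and 5760 to 63300 FPKM in controls, and monocyte genes to 164 to 422 FPKM in CCI and SNI and 303 to 2580 FPKM in controls. Their part in the result was not tested.

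SNT and the mean of CCI and SNI were compared directly, with no control in the contrast. In SNT 30 members were lower and 1 was higher (limma; 17.6% of members beside 14.5% of all genes; 17.0% lower beside 11.0%, and 0.568% higher beside 3.49%). The median difference was -0.53 over members and -0.24 over all genes, and 26 of 176 members had a positive difference. The member that was higher was Slc39a1, at 7.58, 40.2 and 90.7 FPKM as lowest, median and highest in SNT, against 4.75, 6.24 and 8.28 FPKM in CCI and SNI (2.41 ± 0.51; adjusted p = 0.0118). Slc7a5 was at 1.22, 2.46 and 77.1 FPKM in SNT, against 22.1, 50.7 and 95.1 FPKM in CCI and SNI (-2.99 ± 0.60; adjusted p = 0.011). Slc39a14 was at 0, 0.360 and 31.4 FPKM in SNT, against 5.54, 13.9 and 39.6 FPKM in CCI and SNI (-2.95 ± 0.63; adjusted p = 0.0119). For these 3 genes SNT_7dpi replicate 2 lay within the range of CCI and SNI, and the other 7 SNT libraries did not overlap that range.

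Within the classes, SNT was lower in 7 of 25 amino acid carriers, 5 of 18 carriers of ions and pH, 6 of 20 nucleotide sugar carriers, 3 of 8 carriers of vitamins and choline and 0 of 36 mitochondrial carriers. Over all genes 11.0% were lower. The 6 of the nucleotide sugar class include the orphan carrier Slc35e1, so they do not stand for nucleotide sugar transport. Of 26 metal carriers 5 were lower and 1 higher. Slc2a6 had the lowest p of the family, at 1.34, 3.07 and 14.5 FPKM in SNT, against 9.83, 22.1 and 36.6 FPKM in CCI and SNI (-2.33 ± 0.38; adjusted p = 0.00718). Among members with a known microglial role, Slc40a1 was at 8.86, 31.7 and 59.4 FPKM in SNT, against 47.2, 50.3 and 97.0 FPKM in CCI and SNI (-1.13 ± 0.34; adjusted p = 0.0317). Slc2a3 (-1.31), the glutamine carrier Slc1a5 (-1.32), Slc15a3 (-0.99), Slc46a1 (-0.92), Slc30a1 (-0.84) and Slc12a2 (-1.42) were lower as well, so that 8 of 23 tested genes of that list were lower and Slc39a1 was higher. The remaining large differences were in Slc35e1 (-2.22), Slc43a3 (-1.81), Slc12a7 (-1.75), Slc45a4 (-1.63), Slc38a10 (-1.61) and the choline carrier Slc44a1 (-1.40).

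Of the 4 genes that bind or sense zinc, the metallothioneins Mt1, Mt2 and Mt3 were higher in SNT, by 1.54 ± 0.39, 2.23 ± 0.58 and 1.80 ± 0.60 (limma adjusted p = 0.0188, 0.02 and 0.047). Mt1 was at 72.05 to 419 FPKM in SNT and 37.0 to 76.3 FPKM in CCI and SNI. Atf4 was higher in SNT (0.92 ± 0.29), and Ddit3, also called higher, was listed at 0 in all 6 libraries of CCI and SNI and at 0 to 29.0 FPKM in SNT, so no fold is given; Asns and Eif2ak4 of the same list were lower (-1.26 and -1.11). In the other lists, Gclc (-1.53), Aco1 (-1.10), Rragc (-1.30), Atp6ap1 (-0.85), Tfeb (-0.76), Mfsd1 (-0.70), Mfsd12 (-1.76) and Slco2b1 (-1.24) were lower. Of the 17 lysosomal and endosomal carriers 4 were lower. Neutrophil genes summed to 2040 to 21000 FPKM in SNT and 3110 to 9550 FPKM in CCI and SNI, with Cd177 and Ltf lower, and monocyte genes to 5.06 to 728 FPKM in SNT and 164 to 422 FPKM in CCI and SNI, with Itgal lower. Of 12 microglial genes Siglech was higher and Itgam, Olfml3 and Sall1 were lower, and of 10 oligodendrocyte genes 9 had positive differences, with Mobp called higher. Their part in the result was not tested. The count of called members was 76 without SNT_7dpi replicate 2 and 71 without SNT_2dpi replicate 1, and it was 7 to 15 without any 1 of the 6 libraries of CCI and SNI, the SNT_4dpi libraries, SNT_1dpi replicate 1, SNT_2dpi replicate 2 or SNT_7dpi replicate 1. It was 0 without the 3 libraries with the fewest genes at 1 FPKM or more, all of them SNT, and 0 with the Cst3 split as a term, which only the SNT_7dpi pair and the controls inform.

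The 3 kinds of control, fixed saline, escalating saline and naive, were compared before they were pooled. No member was called (limma F-test; 0.102% of all genes were), and 24 members, 13.6%, had an unadjusted p under 0.05, beside 13.5% of all genes. Slc39a1 came closest (adjusted p = 0.0517), at 24.7 to 54.6 FPKM in escalating saline, 28.9 to 74.7 FPKM in fixed saline and 3.22 and 5.16 FPKM in naive. Slc43a2 (adjusted p = 0.111) had 2.40 to 3.84 FPKM in escalating saline, 4.68 to 7.39 FPKM in fixed saline and 9.92 and 12.96 FPKM in naive. Slc24a3 followed (adjusted p = 0.112), with 0.0518 to 1.46 FPKM in escalating saline, 2.31 to 3.75 FPKM in fixed saline and 8.15 and 9.10 FPKM in naive. For these 3 genes the naive libraries lay outside the range of both saline groups. All 3 are among the members that part by the Cst3 split, and naive and saline lie on opposite sides of it. Leaving out 1 library gave 0 to 5 called members, with 5 without either SNT_7dpi library.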

How the data were processed

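RNA-seq values were read for 30 mouse libraries (Smart-Seq2, a full-length cDNA method, with Nextera XT, per the labels' protocols). The authors deposited FPKM for 24888 rows. Tools listed in the submitters' processing notes are featureCounts 1.4.6, Cufflinks 2.2.1, DESeq2 and HISAT2 2.0.5.1, with the build mm10. Which tool gave the FPKM is not given in the sources used here. The 826 rows of 281 repeated symbols were dropped, none of them an Slc gene.

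Genes with at least 1 FPKM in at least 2 libraries were kept, which left 11759. Tests used limma 3.58.1 in R 4.3.3 with a trend, on log2(FPKM + 1), two-sided, adjusted by Benjamini-Hochberg over all of them, and called at an adjusted p under 0.05. Differences on this scale understate the change of low genes. Morphine was fitted on 14 libraries, injury on 23 with 1 mean for all controls, and the kinds of control on all 30. Against naive, morphine was fitted on the libraries of both morphine regimens and naive. The procedure was tested on simulated data. Where depth is given, it was read from the densest low value of FPKM times length over 5547 genes with a single transcript. That value was assumed to be 1 read, and in 4 libraries it rests on 10 to 19 genes. Other tools were matplotlib 3.10.9 and pandas 2.3.3 in Python 3.11.15. Gene positions come from an annotation of the mm10 build (GRCm38).

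Members, lists and tests were chosen with earlier results of these data known. Named genes are the 10 highest, the members of a list with a microglial role, up to 10 called members per direction and comparison (otherwise the lowest p-values), and up to 4 called genes of each partner list; other called members of a class are named after their values were seen. Promoters come from RefSeq. Alternatives covered the pseudocount, filter, scaling, weights, replicate block, comparator and each library left out. Single results for 2 members are not reported here.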

Additional observations from a re-analysis of the deposited data

Results flagged for a closer look

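The difference between the responses to SNT and to CCI and SNI covered 31 solute carriers, by the direct test of the 2 injury means (limma, adjusted p under 0.05; 17.6% of members beside 14.5% of all genes). Against the shared controls, SNT gave 0 members and CCI and SNI gave 6. The values of these genes are given with the comparison itself. Among 37 members read in the fixed morphine and fixed saline groups of 4 (74 groups), 0 libraries lay beyond Dixon's limit.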

How the results depend on the processing

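Counts of called members moved with the processing as follows (limma, adjusted p under 0.05). Counts over all genes moved as well. For fixed morphine they were 2119 as given, 1606 with no filter, 3552 after TPM rescaling and 4348 with array weights. For CCI and SNI against controls they were 215 as given, 1296 with saline controls alone and 2203 with array weights. For SNT against CCI and SNI they were 1707 as given, 1140 with a pseudocount of 0.1, 569 with no filter and 3338 after TPM rescaling. Fixed morphine against fixed saline, 27 as given, had 16 with no filter, 60 after rescaling to TPM, 65 with array weights and 0 each with the replicate block, with naive in place of saline and with the Cst3 split as a term. The fixed groups share only 2 replicate numbers, so the block compares them mainly through those few libraries. Its 0 there says little of stability. In the injury fit each saline library has a replicate number that no other library shares. With the block, comparisons with controls therefore rest on the 2 naive libraries. The block's 0 for CCI and SNI against controls is thus not a separate check from naive controls alone. CCI and SNI against controls, 6 as given, had 0 with a pseudocount of 0.1, with no filter, with median-ratio scaling, with the replicate block, with naive controls alone and with the Cst3 term, 22 with saline controls alone, 28 without the 3 libraries with few genes and 39 with array weights. SNT against CCI and SNI, 31 as given, had 20 with a pseudocount of 0.1, 10 with no filter, 70 after TPM rescaling, 11 with the replicate block, and 0 each without the 3 libraries with few genes and with the Cst3 term. With 0 as given, array weights gave 6 for the difference between regimens (683 of all genes) and 4 for CCI at 2 dpi (262). They gave 16 for CCI at 7 dpi (1068) and 14 for the kinds of control (1033). Saline controls alone gave 3 for CCI at 2 dpi (202 of all genes), 5 for CCI at 7 dpi (231) and 1 for SNI (44). Naive controls alone gave 1 for SNT at 1 dpi (2 of all genes). The kinds of control had 1 with a filter of 5 FPKM, 2 with quantile scaling and 11 without the 3 libraries.

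Leaving out 1 library gave 10 to 40 for fixed morphine, 0 to 9 for escalating morphine, 0 to 4 for the regimen difference, 0 to 18, 0 to 27 and 0 to 24 for SNT at 1, 2 and 7 dpi, 0 to 1 for CCI at 7 dpi and for mean SNT, 0 to 14 for CCI and SNI, 7 to 76 for SNT against CCI and SNI, and 0 to 5 for the kinds of control. A group left with 1 library was assumed to vary like the others. Of the alternatives for single named genes 571 kept direction and call, 284 lost the call and 6 reversed. Under fixed morphine the reversed values were -0.17 for Slc45a4, -0.15 for Slc2a6 and 0.20 for Slc39a1 with the Cst3 term, and 0.50 for Slc39a1 and 0.28 for Slc3a2 against naive; for SNT against CCI and SNI, Slc12a7 was 0.10 with the Cst3 term. In the morphine fit the Cst3 term rests on escalating morphine replicate 1 against replicates 2 and 3 alone, since the split coincides with fixed morphine against fixed saline, so its values and lost calls there follow from the design and say nothing of stability. The other causes were not tested.

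Scaling moved the median of all genes under fixed morphine by -0.174 (median ratio), -0.234 (quantile) and 0.23 (TPM), and for SNT against CCI and SNI by 0.164, 0.257 and -0.232. Whether replicate numbers pair the samples could not be decided. Same-numbered deviations correlated at -0.274 and -0.0493 in the fixed groups, which share only 2 numbers. They ran from -0.429 to 0.224 over 56 pairs of injury and naive libraries, 8 of them above 0.1. In groups of 2 libraries the deviations mirror each other, so each value is repeated within the 56. No paired analysis was possible because the contrast was not estimable for escalating morphine, the regimen difference or the kinds of control. Alternatives with the Cst3 split, with the libraries above it alone and with naive in place of saline were chosen after seeing the data. Shallow libraries limit members near 1 FPKM most.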
